A study of Mus musculus with 6 samples.

Results

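The genes described here are 10 genes of the liver X receptor (LXR) pathway and of cellular cholesterol handling, Nr1h3, Nr1h2, Abca1, Abcg1, Abcg8, Pltp, Mylip, Srebf1, Ch25h and Soat1. They were picked by symbol, without use of their values in this rule, but with earlier results of these data known, as were the gene lists set beside them. On the arrays, 14 of the 39556 probes carried one of these symbols. All 14 had a value on every array, and no older synonym of a member added a probe. RNA came from 3 ApoE KO aortas, of mice labelled 32 weeks old, and from 3 WT (C57BL6) aortas, of mice labelled 24 weeks old. The source names of all 6 give another, younger age that is the same in both groups, so the stated ages are not certain. WT replicates 2 and 3 carry the same source number, although their labels call them separate biological replicates; their log2 ratios differed with an SD of 0.173 over all features, so they are not the same values deposited again, but whether they came from separate mice is not known and n = 3 counts arrays. Mice of both groups ate a high-fat diet, and both groups carry the label C57BL6 db/+ as their background. The protocol gives 16 weeks of diet from 8 weeks of age for both groups and reports lesions in the knockout aortas and none in the wild type. In the deposited intensity table, however, headings of the 3 arrays not named C57BL6 speak of a vehicle and a longer diet, and match no label. Whether these are the knockout arrays is not known, so the effect of the genotype and those of age, vehicle and time on the diet cannot be told apart. The labels do not say whether aortas were pooled, and in whole aortas fewer cells of a type and less RNA per cell cannot be told apart.

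LXRs are nuclear receptors that bind oxysterols, and they act as partners of retinoid X receptors on DNA elements built of repeated short sequences. When sterols build up in a cell, they switch on genes that move cholesterol out of it, limit its uptake and turn on fatty acid synthesis. In arteries the pathway is best known from macrophages that take up lipoproteins and become foam cells, in which cholesterol is either exported to lipoproteins or stored as esters.

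Letters like those of an LXR element stand in the promoters of Abca1 and Srebf1, and these sequences are shown because both genes are textbook targets of the receptors. The RefSeq table (GRCm38.p6) held 13 promoters of 9 members, all but Abcg1, each with 250 bases before and 50 bases after the start of a transcript. The letters GGTNA, then 5 letters of any kind, then GGTNA again, a direct repeat like those LXRs bind, were searched on both strands and were found in 2 of the 13 promoters and in 0.718% of 32851 promoters of the same length. The letters were written with known LXR elements in mind, so a match in a known target is no independent evidence. They are given in capitals, as the reverse strand of the motif, in the promoter of Abca1 (chr4:53159846-53160145, minus strand), where they begin 67 bases before the start, and in the third promoter of Srebf1 (chr11:60210422-60210721, minus strand), where they begin 182 bases before it.
Abca1: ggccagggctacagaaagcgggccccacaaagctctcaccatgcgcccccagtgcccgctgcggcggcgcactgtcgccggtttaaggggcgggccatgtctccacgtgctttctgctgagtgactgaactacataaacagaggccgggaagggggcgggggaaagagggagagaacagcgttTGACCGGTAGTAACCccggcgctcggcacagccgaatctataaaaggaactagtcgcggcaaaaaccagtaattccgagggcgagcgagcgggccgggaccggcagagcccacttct
Srebf1: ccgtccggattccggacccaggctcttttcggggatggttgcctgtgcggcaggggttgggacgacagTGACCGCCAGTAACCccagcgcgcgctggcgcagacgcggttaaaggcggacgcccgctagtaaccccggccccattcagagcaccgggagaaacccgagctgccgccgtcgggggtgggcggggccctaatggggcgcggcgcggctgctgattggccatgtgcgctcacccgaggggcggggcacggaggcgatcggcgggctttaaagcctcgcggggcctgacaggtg
The repeat unit AGGTCA itself was in none of the 13 member promoters and in 16.3% of all promoters. Among 17 other LXR target genes, 10 had a promoter in the table, and that of Fasn, the fatty acid synthase, held the spaced letters. These matches are descriptions of letters in a window and not of binding.

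Of the 10 members, 8 were higher and 1 was lower in ApoE KO aortas at an adjusted p under 0.05 in limma. Among all 35028 features 14.7% were called, 6.73% higher and 8% lower. Nr1h2 did not pass. The members' median log2 fold change was 0.70, and that of all features was -0.02. ApoE KO and WT values did not overlap for any of the 10 members, beside 11% of all features with every knockout value above and 18.4% with every knockout value below the wild type. Values are log2 ratios of an aorta's own RNA over the common reference, a difference is ApoE KO minus WT on that scale given ± its standard error, and each group has n = 3 arrays throughout. As a check of the labels, Apoe, on a probe for NM_009696, was at -1.31, -1.21 and -1.31 in the knockout and at 0, -0.32 and 0.12 in the wild type (-1.21 ± 0.13, adjusted p 0.00649 in limma). Nothing used here tells if this probe lies in the deleted stretch.

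**Figure D1:**
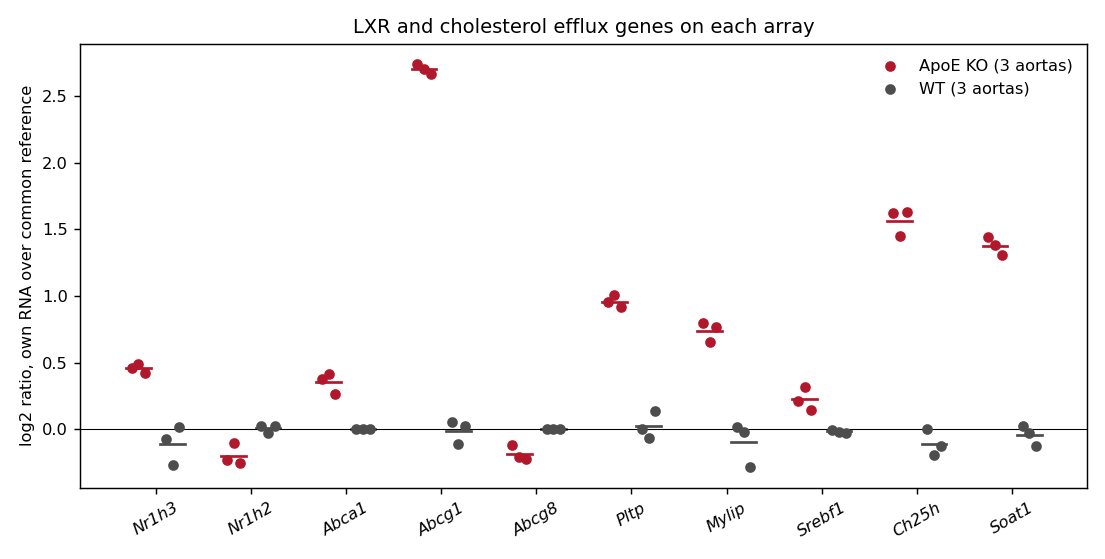
Log2 ratio (own RNA over common reference) of each member (the brightest probe where there are several), with 1 point per array, ApoE KO in red to the left of WT in grey, and a line at each group's mean. Abcg1 stands highest in the knockout at 2.70, and Nr1h2 and Abcg8 lie below the wild type.

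The probes differ in how well they resolve a change. The level of a probe is its signal in arbitrary units, the mean reference intensity of the 3 arrays headed C57BL6 multiplied by the average of 1 and the mean linear ratio of the 6 arrays. Intensities were written to 0.01, so that dim probes move in visible steps. Of the 10 members, 7 had a level of at least 0.5, and Ch25h (0.354), Abcg8 (0.126) and Abca1 (0.0998) lay below it; the median over all features was 0.144. In a fit of only the 9034 features at or above 0.5, 6 of the 7 members there were higher and 1, Nr1h2, was lower. Of those features 43.4% were called, 19% higher and 24.5% lower.

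**Figure D2:**
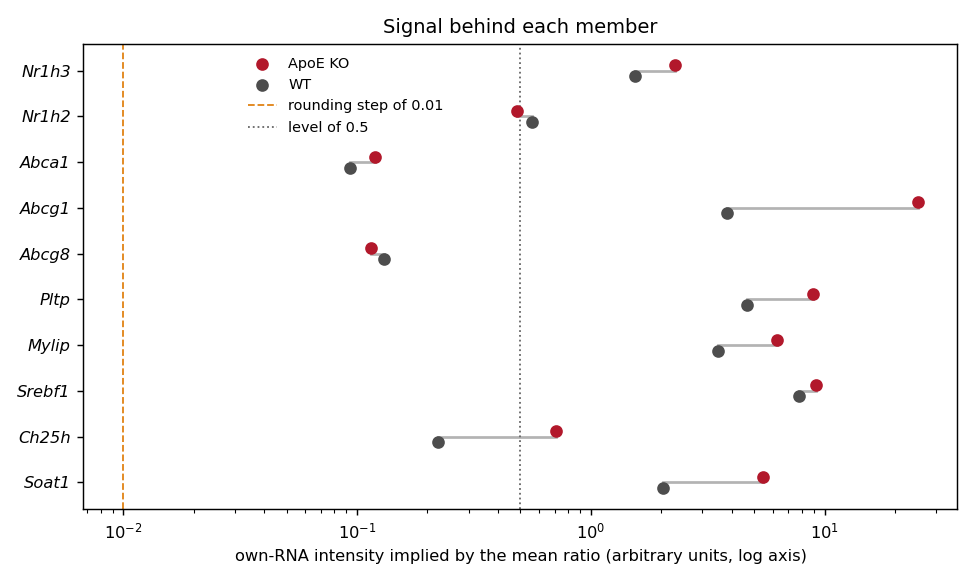
Own-RNA intensity implied by the mean ratio of each group and the mean reference intensity, on a log axis in arbitrary units, for the probe of each member used in the comparison. Dashed and dotted lines mark the rounding step of 0.01 and the value of 0.5 used as a cut on level. Level is another quantity than the intensity plotted, so the dotted line does not sort the members by level. Abca1 and Abcg8 lie near 0.1, with both groups within a few steps of each other, whereas Abcg1 is at 25.04 in ApoE KO and 3.82 in WT.

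Of the receptor genes, Nr1h3 rose and Nr1h2 did not pass. Nr1h3, which encodes LXR alpha, the form enriched in macrophages, liver and fat, was at 0.46, 0.49 and 0.43 in the 3 ApoE KO aortas, against -0.07, -0.27 and 0.02 in the 3 WT aortas. The lowest knockout value exceeded the highest wild type value by a wide margin, and the wild type aortas were the more variable group. The difference was 0.57 ± 0.081, or 1.48-fold higher, with an adjusted p of 0.0154 in limma. This call was lost without any 1 of the ApoE KO arrays or without WT replicate 1 (adjusted p between 0.0559 and 0.0645), and after quantile normalization between arrays (0.0949), which forces the wide knockout and narrow wild type ratios to 1 distribution.

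Nr1h2, which encodes LXR beta, the form found in most tissues, had 3 probes. The probe MMT00053237, with a level of 0.54, was at -0.23, -0.11 and -0.25 in ApoE KO aortas, against 0.03, -0.03 and 0.03 in WT aortas. ApoE KO replicate 2 lay nearest to the wild type, and all knockout values were below it. The difference of -0.21 ± 0.046, which is 1.15-fold lower, had an adjusted p of 0.0546 over all features. It passed in the fit of features at or above a level of 0.5 (0.014), without the dimmest 25% of features (0.0355), with array weights (0.0277) and without ApoE KO replicate 2 (0.0111). It did not pass without any other array (0.119 to 0.17) or after quantile normalization (0.453). Both probes for NM_009473 were near the rounding floor, at levels of 0.0476 and 0.0684, and most of their ratios were exactly 0. Their differences of -0.11 and -0.14 came from groups that overlap and had adjusted p values of 0.497 and 0.26 in the limma fit of all 39362 probes, of which 14.1% were called, 6.44% higher and 7.62% lower. Nr1h2 lies on chromosome 7, as does Apoe, and whether this bears on the difference was not tested.

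The exporters include the member with the largest difference. Abcg1, the transporter that passes cholesterol from macrophages to high density lipoprotein, was at 2.74, 2.70 and 2.67 in ApoE KO aortas, against 0.06, -0.11 and 0.03 in WT aortas. The knockout values lay close together, with an SD of 0.0365, beside 0.09 in the wild type. The gene was 6.56-fold higher, a difference of 2.71 ± 0.053 with an adjusted p of 0.000221 in limma, and 0.0343% of all features had a larger one. The size depends on scaling, since after quantile normalization the difference was 1.73 (adjusted p 0.00372).

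Abca1, the transporter that loads cholesterol onto lipid-poor apolipoprotein A-I, was represented by 1 dim probe for NM_013454. Its ratio was 0.38, 0.42 and 0.26 in ApoE KO aortas, against 0, 0 and 0 in WT aortas. The reference intensities on the arrays headed C57BL6 were 0.09, 0.09 and 0.1, so that a wild type ratio of 0 means own RNA within a rounding step of these. The difference of 0.35 ± 0.043 passed the test (adjusted p 0.00983 in limma), but it corresponds to 2.59 rounding steps and was set against a wild type spread of 0 at this rounding, so that its size is not resolved. The fold of 1.28 therefore cannot be set against that of Abcg1.

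Abcg8, which pairs with Abcg5 to pump sterols into bile and the gut lumen, was the member called lower. It was at -0.12, -0.21 and -0.22 in ApoE KO aortas, against 0, 0 and 0 in WT aortas, on a probe for AK004871 with reference intensities of 0.14, 0.12 and 0.13. The difference of -0.18 ± 0.031 (adjusted p 0.0265 in limma) amounts to -1.54 rounding steps. The call was lost without any array other than ApoE KO replicate 1 (adjusted p between 0.0792 and 0.0971) and after quantile normalization (0.17). Abcg5, its partner, was at 0, -0.22 and 0 in ApoE KO aortas, against 0.22, 0 and -0.32 in WT aortas, and did not pass (adjusted p 0.987) at a level of 0.0591.

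Pltp, Mylip and Srebf1, targets of LXR outside the transporters, rose as well. Pltp, the phospholipid transfer protein of plasma lipoproteins, was at 0.95, 1.01 and 0.92 in ApoE KO aortas, against 0.01, -0.07 and 0.14 in WT aortas. All 3 knockout aortas were thus about a unit of log2 above the reference, and the gene was 1.91-fold higher (0.93 ± 0.061, adjusted p 0.00182 in limma), or by 0.61 on the log2 scale after quantile normalization (0.0356). Mylip, also known as Idol, a ubiquitin ligase that limits the uptake of lipoprotein cholesterol, was at 0.80, 0.65 and 0.77 in ApoE KO aortas, against 0.02, -0.02 and -0.28 in WT aortas. WT replicate 3 stood below the other wild type aortas. Mylip was 1.79-fold higher (0.84 ± 0.099, adjusted p 0.00878), and the call was narrowly lost after quantile normalization (0.0502).

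Srebf1 encodes SREBP1, the transcription factor of fatty acid synthesis, whose form SREBP1c is made from an LXR target promoter. It was at 0.22, 0.32 and 0.15 in ApoE KO aortas, against 0.00, -0.02 and -0.03 in WT aortas. The wild type values were close to each other, and the knockout values were all above them with a wider spread. The difference of 0.24 ± 0.048, or 1.18-fold, was the smallest among the members called higher (adjusted p 0.0385 in limma). It was lost without ApoE KO replicate 1 or any 1 of the WT arrays (adjusted p between 0.106 and 0.122) and after quantile normalization (0.0692). With a level of 8.18 the probe is not limited by rounding, and the sources used here do not say which forms of Srebf1 it measures.

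Enzymes that make an oxysterol and store cholesterol were both higher. Ch25h, the enzyme that makes 25-hydroxycholesterol, an LXR ligand that interferon also induces in macrophages, was at 1.62, 1.45 and 1.63 in ApoE KO aortas, against 0, -0.19 and -0.13 in WT aortas. The gene was 3.19-fold higher (1.67 ± 0.077, adjusted p 0.000863 in limma), a difference of 48.8 rounding steps. Soat1, the enzyme that esterifies cholesterol for storage in lipid droplets, was at 1.45, 1.38 and 1.31 in ApoE KO aortas, against 0.03, -0.03 and -0.13 in WT aortas on the probe for NM_009230. It was 2.68-fold higher there (1.42 ± 0.056, adjusted p 0.00071), and by 0.92 on the log2 scale after quantile normalization (0.00676).

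The probes of Soat1 went the same way with different sizes. The probe MMT00013676 was at 0.83, 0.68 and 0.69 in ApoE KO aortas, against 0.01, 0.02 and -0.10 in WT aortas, and the probe for AK018442 at 0.72, 0.77 and 0.60 against 0, 0.04 and 0. Their differences were 0.76 ± 0.058 and 0.68 ± 0.051 (adjusted p 0.00267 and 0.00254 in the limma fit of all probes). The probe for NM_009230 exceeded them by 0.661 and 0.737, and the exact permutation test over the 6 arrays gave p = 0.1 for either gap (0.15 after Benjamini-Hochberg adjustment over the 3 pairs), the smallest that 3 against 3 arrays allow. The remaining pair differed by 0.076 (exact permutation p = 0.3). The transcripts of Soat1 that each probe covers are unknown here.

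**Figure D3:**
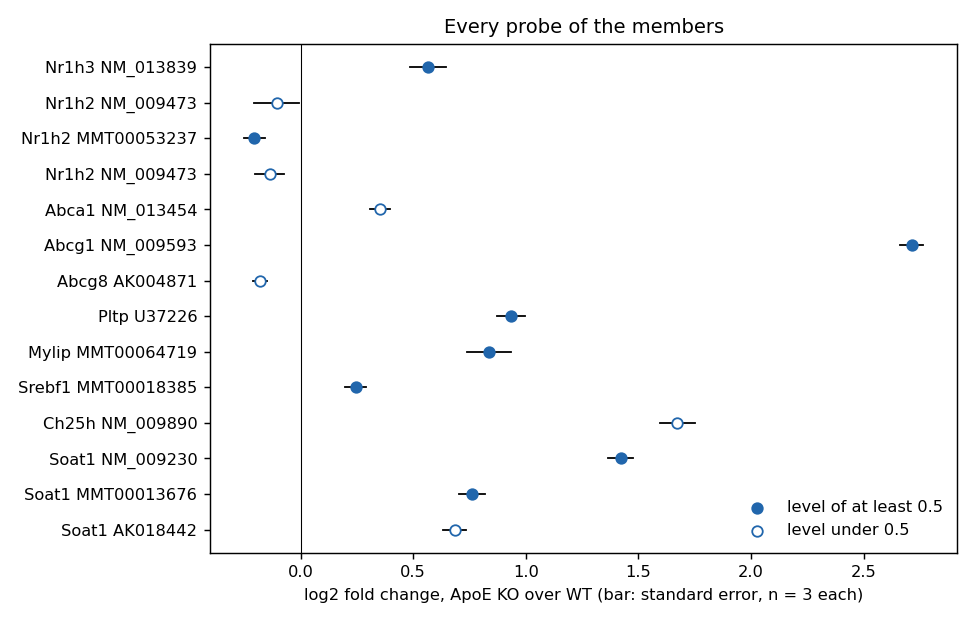
Log2 fold change, ApoE KO over WT, of all 14 probes of the members with the standard error as a bar (n = 3 arrays each), filled where the level is at least 0.5. The 3 probes of Soat1 lie at 1.42, 0.76 and 0.68, and the 3 probes of Nr1h2 lie below 0.

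In order of size the differences ran from Abcg1 (2.71) over Ch25h (1.67), Soat1 (1.42), Pltp (0.93), Mylip (0.84), Nr1h3 (0.57), Abca1 (0.35) and Srebf1 (0.24) to Abcg8 (-0.18) and Nr1h2 (-0.21). The interval of Abcg1, 2.57 to 2.85 at a confidence of 95%, overlapped that of no other member. Most neighbours further down did overlap. Ch25h (1.47 to 1.88) overlapped Soat1 (1.27 to 1.57), and Pltp (0.772 to 1.095) overlapped Mylip (0.575 to 1.097). Abca1 (0.238 to 0.466) overlapped Srebf1 (0.116 to 0.371). The interval of Nr1h3, 0.352 to 0.779, overlapped those of Mylip and Abca1 beside it, and narrowly those of Pltp and Srebf1. Abcg8 (-0.264 to -0.098) and Nr1h2 (-0.329 to -0.083) overlapped as well. Because dim probes move in steps, the places of Abca1 and Abcg8 in this order are not resolved.

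Other LXR target genes were higher in part. Of 17 such genes on the arrays, 7 rose and 0 fell, beside 6.73% higher and 8% lower among all features. Their median log2 fold change was 0.18, beside -0.02 for all features. Apoc2, among the 7 called higher, is named after its values were seen (0.29 ± 0.051, adjusted p 0.0287 in limma, level 0.213). It lies beside Apoe, as do Apoc1 and Apoc4 of this list, and whether this bears on the values was not tested. Lpl, the lipoprotein lipase, was at 1.68, 1.61 and 1.61 in ApoE KO aortas, against 0.15, -0.08 and -0.04 in WT aortas, which is a difference of 1.62 ± 0.069 (adjusted p 0.00074 in limma). Cd5l, a protein secreted by macrophages that keeps them from apoptosis, differed by 1.40 ± 0.082 and Scd2, a stearoyl-CoA desaturase, by 0.43 ± 0.035 (adjusted p 0.00136 and 0.00321). After quantile normalization 2 of the 17 were called higher, Lpl (adjusted p 0.0433) and Scd1 (0.0466), and Cd5l (0.0684) and Scd2 (0.115) were not. Cd5l and Scd1 were dim, at levels of 0.282 and 0.101. Only 5 of the 17 genes had a level of at least 0.5. In the fit of such features 4 of the 5 were higher and 0 lower, beside 19% and 24.5% of those features. The 10 genes that did not pass include Mertk, a receptor for dying cells, whose level of 0.0419 is below that of every member probe.

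Among 14 partners and coregulators of the receptor, 0 rose and 2 fell, with a median of -0.02. This count is near the 14.7% called among all features and is no result about these genes. Ncoa1, a coactivator of nuclear receptors, had a log2 fold change of -0.22 ± 0.033, and Tbl1x, a subunit of the corepressor complex, one of -0.22 ± 0.046 (adjusted p 0.0176 and 0.042 in limma). Both calls were lost after quantile normalization (0.0559 and 0.301) and without each of 4 or 5 arrays in turn (up to 0.0644 and 0.133). Rxra, the main partner of LXR in many tissues, was at -0.04, 0.02 and -0.02 in ApoE KO aortas, against 0.04, 0.02 and -0.02 in WT aortas, and is named after its values were seen.

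Genes that release, bind and store cholesterol were mixed. Of 19 genes, 6 rose and 1 fell, beside 6.73% higher and 8% lower among all features, and the median was 0.04. Fabp5, a fatty acid binding protein, differed by 2.13 ± 0.024, Npc2, which hands cholesterol to the lysosomal membrane, by 1.04 ± 0.069, and Plin2, the coat protein of lipid droplets, by 1.27 ± 0.086 (adjusted p 0.000125, 0.00185 and 0.00198 in limma). These calls also passed after quantile normalization, where 3 of the 19 were higher and 0 lower, and without each array in turn; without WT replicate 3, 4 of the 19 were lower. Cav1, the caveolae protein of smooth muscle and endothelium, was the gene that fell, at -0.57, -0.60 and -0.53 in ApoE KO aortas, against 0.03, 0.02 and -0.14 in WT aortas (adjusted p 0.0063, and 0.0524 after quantile normalization). Soat2, the paralogue of Soat1 found in liver and gut, did not pass (-0.12 ± 0.051, adjusted p 0.217).

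The sterol synthesis branch, run by SREBP2, went the other way in part. Of 24 of its genes on the arrays, 8 fell and 2 rose, beside 8% lower and 6.73% higher among all features. The median was -0.08, beside -0.02 for all features and -0.05 for those at or above a level of 0.5. In the fit of features at or above that level, 9 of 19 sterol synthesis genes were lower and 2 higher, beside 24.5% and 19% of those features. Sqle, the squalene epoxidase, was at -0.65, -0.64 and -0.65 in ApoE KO aortas, against -0.03, 0.07 and -0.01 in WT aortas, a difference of -0.66 ± 0.028 (adjusted p 0.00074 in limma). Mbtps1, the protease that starts SREBP activation, differed by -0.17 ± 0.013 (adjusted p 0.00263). The genes that rose were Ebp (0.19) and Dhcr7 (0.26), enzymes of late sterol synthesis, with adjusted p values of 0.0158 and 0.0444 that went up to 0.0623 and 0.147 when an array was left out. Srebf2 itself, named after its values were seen, was at -0.62, -0.59 and -0.68 in ApoE KO aortas, against -0.18, -0.03 and 0.03 in WT aortas (-0.57 ± 0.064, adjusted p 0.00749), so that this gene and Srebf1 differed from the wild type in opposite directions. After quantile normalization 1 gene was called lower (Sqle) and 1 higher (Scap, adjusted p 0.0452 in limma), whereas Ebp and Dhcr7 did not pass (0.128 and 0.336). In the main fit Scap differed by -0.0034 and did not pass (0.995). Leaving out an array gave between 4 and 7 called lower.

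**Figure D4:**
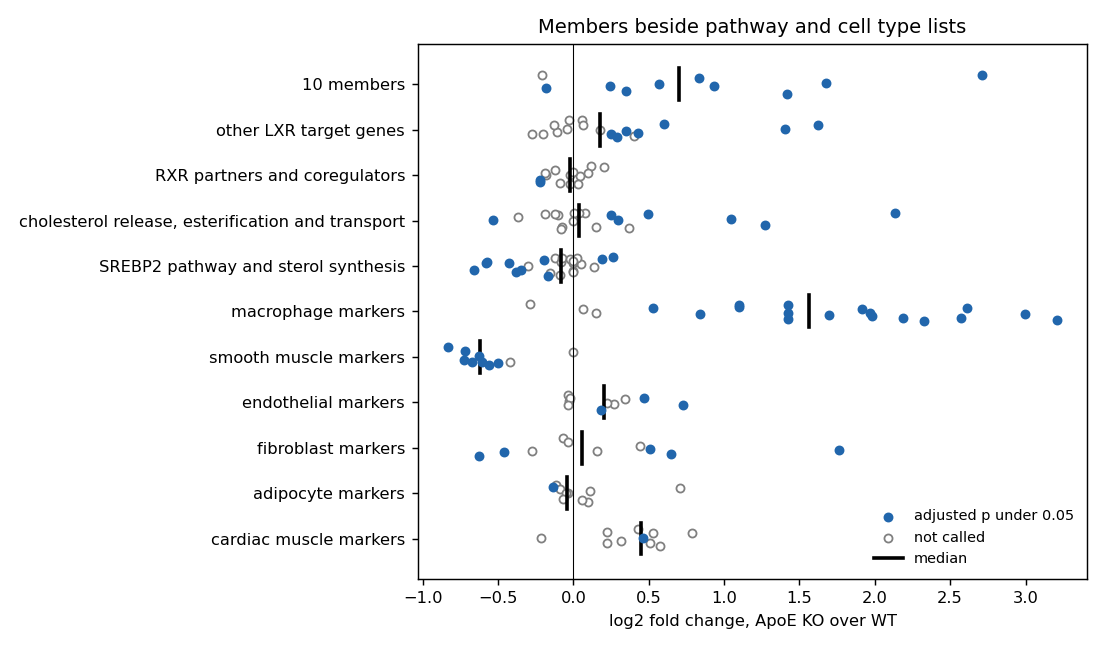
Log2 fold change, ApoE KO over WT, of the 10 members and of each gene of the pathway and cell type lists, with 1 point per gene, filled where the adjusted p is under 0.05, and a line at the median. The members' median is 0.70, that of the macrophage markers 1.56 and that of the smooth muscle markers -0.62.

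Cell type markers differed between the groups too, in directions that depended on the cell type. Among all features 6.73% were called higher and 8% lower. Of 20 macrophage markers, 17 rose and 0 fell with a median of 1.56, led by Msr1 and by Ctss (3.21), and their summed intensity, implied by ratio and reference, was 486, 496 and 429 in the ApoE KO aortas, against 115, 106 and 126 in the WT aortas. Cd68, Itgam and Mertk did not pass (0.15, -0.29 and 0.06). Of 10 smooth muscle markers, 8 fell and 0 rose with a median of -0.62 and the lowest p values for Lmod1 and Cnn1, and the sum was 392 to 447 in ApoE KO and 650 to 697 in WT aortas. Of 10 markers each, endothelial genes had 3 higher and 0 lower (Vwf, Esam and Emcn), fibroblast genes 3 higher (Col1a1, Lum and Col3a1) and 2 lower (Ogn and Serpinf1), adipocyte genes 0 higher and 1 lower (Lep) and cardiac genes 1 higher (Nppa) and 0 lower. The adipocyte and cardiac counts are near the shares of all features and are no result about these genes. Vwf, Lep and Nppa were dim, at levels of 0.161, 0.0945 and 0.1097. All 10 fibroblast markers had a level of at least 0.5. In the fit of such features 5 of them were higher and 3 lower, beside 19% and 24.5% of those features. Cardiac markers had medians of -0.61, 0.33 and 0.66 on ApoE KO replicates 1, 2 and 3, against 0, -0.71 and 0 on WT replicates 1, 2 and 3. After quantile normalization 14 macrophage markers were higher, 5 smooth muscle markers were lower and 0 endothelial or cardiac markers were called. Endothelial markers called higher numbered 0 without ApoE KO replicate 1 or 2 and 1 with WT replicate 2 or 3 left out, and the cardiac call was lost without any array other than ApoE KO replicate 1. Of the fibroblast markers, 1 was lower after quantile normalization and without ApoE KO replicate 1 or 3 or WT replicate 1 or 3, and 2 were higher after quantile normalization and without ApoE KO replicate 1 or WT replicate 1 or 2. With WT replicate 2 left out, 3 fibroblast markers were lower. The part of macrophage and smooth muscle content in the members' differences was not tested.

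The nearest genes, by Euclidean distance of the 6 log2 ratios among 7812 other named features with a level of at least 0.5, give each member's neighbours. For Abcg1 these were Cd300c2, Bcl2a1a and Il1rn, the interleukin 1 receptor antagonist (distances 0.151, 0.179 and 0.214). Bcl2a1a has near-identical copies that its probe may not separate. Soat1 had Gusb and Lgmn, enzymes of the lysosome, and Slco2a1, a prostaglandin transporter (0.091, 0.099 and 0.131), and Pltp had Lgals3bp, Ctsz, a lysosomal cathepsin, and Prss46 (0.121, 0.123 and 0.13). Nr1h3 was nearest to Ifi203, Cd36, a scavenger receptor for oxidised lipoproteins, and Ly6c1 (0.091, 0.111 and 0.122), and Mylip to Osbpl8, an oxysterol-binding protein relative, Hacd4 and Ppic (0.074, 0.154 and 0.162). Nr1h2 (Suox, Gpi1 and Tsc22d4) and Srebf1 (Chchd2, Tpra1 and Cptp) had 1212 and 283 features within a distance of 0.2, against 2 for Abcg1 and 6 each for Soat1 and Mylip, so a small difference has many neighbours.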

How the data were processed

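Own RNA (Cy5) of 6 aortas was set against a common Cy3 reference on 2-colour Agilent arrays, and per the labels' protocols 100 ng of total RNA was amplified in repeated rounds. Per the submitters' processing notes, the scans went through Agilent Feature Extraction version 8.5.1.1, with background, dye and centring steps not given in the sources used here. Deposited values are log10 ratios of own RNA over reference, here turned into log2. The authors' second deposited table gives intensity, rounded to 0.01; only the reference channel of the 3 arrays headed C57BL6 was used from it, without a replicate number, and 15 of its per-sample columns were not used. Where these 3 intensities were equal and between 0.05 and 0.3, intensity times ratio was a whole number of steps (within 0.001) for 100% of 1268 nonzero WT values, against 51.3% with the sign turned and 1.26% read as log2; for ApoE KO the direction rests on the dyes in the labels.

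The 194 probes without all 6 values were left out. Symbols came from the file and from RefSeq (GRCm38.p6), and the probe with the highest level stood for each gene, which gave 35028 features. Groups were compared with limma 3.58.1 (R 4.3.3), no trend and no block, at a Benjamini-Hochberg adjusted p under 0.05 over all features; the fit was tested on simulated data. The 10 members, the 10 lists and the promoter motif were chosen with earlier results of these data known. Named were all members, Apoe, up to 3 genes of each pathway list by p, up to 2 of each cell type list, genes behind a count of 5 or fewer, and the 3 nearest genes of each member with a level of at least 0.5; genes outside this rule are marked, and 1 gene that the rule names is not reported here. The labels call the arrays biological replicates; replicate numbers did not pair the groups (correlation of deviations 0.089, -0.193 and -0.026 for numbers 1, 2 and 3).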

Additional observations from a re-analysis of the deposited data

How the results depend on the processing

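Over 15 alternatives the members gave 144 values, of which 117 kept direction and side of the threshold, 22 lost the call, 5 gained it and 0 reversed. The calls of Abcg1, Ch25h, Soat1 and Pltp held under each alternative in which they were fitted, with adjusted p values of at most 0.0213, 0.0225, 0.0161 and 0.041. Quantile normalization between arrays left 5 members called higher and 0 lower, and over all features 871 higher and 780 lower, against 2357 and 2801. Centring on the middle of the ratios turned the split over all features to 2764 higher and 2307 lower. Members called lower numbered 2 without the dimmest 25% of features and 2 with array weights. Leaving out 1 array in turn gave 6 to 7 members called higher and 0 to 1 lower; none was lower without ApoE KO replicate 3 or any 1 of the WT arrays, and without ApoE KO replicate 2 the member called lower was Nr1h2 in place of Abcg8. With the replicate block, 4 members were called higher and 0 lower, and over all features 1281 higher and 1301 lower; the numbers are only shared labels here, and no same-numbered pair had a correlation above 0.1. All features called lower numbered 1803 without ApoE KO replicate 3, 1798 without WT replicate 2 and 1702 at a level of at least 0.5 with centring, an alternative chosen after seeing the data. Rounding to 0.01 limits Abca1 and Abcg8 most.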
